A study of Mus musculus with 36 samples.

Results

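The 200 genes whose liver signal differed most between mice of the same group were described here, out of 6273 genes with a mean signal above 500. They were chosen by their spread alone. For each gene, log2 of the signal plus 23 was taken on 34 arrays, its squared deviations from the 9 group means were summed and divided by 25 degrees of freedom, and the genes with the largest square root (the pooled within-group SD) were kept. A gene was represented by its probe set of highest mean signal. The spread is therefore a description and was not tested. The study profiled livers of 36 female mice, 6 to 8 weeks old and fasted for 4 to 5 hours, on Affymetrix arrays, 1 mouse per array and 4 mice per group. Its 5 mutant lines develop neural tube defects, and each was compared with a control group.

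The mutant groups were Pax3 (heterozygous for Pax3Sp2H), Cd-Het (heterozygous for Lrp6Cd), Apob (heterozygous for Apobtm1Unc), Lp-Het (heterozygous for Vangl2Lp) and Ct. Ct animals belong to a colony that is closed but bred at random, so they need not be genetically identical, and the labels take every one as ct/ct. The controls were B6 (C57BL/6J, for both Pax3 and Apob), Cd-WT and Lp-WT (wild type mice of the Lrp6Cd and Vangl2Lp strains) and CBA (CBA/CaJ, for Ct). CBA replicate 4 and Ct replicate 3 were left out of the selection. Their 3'/5' signal ratios of the GAPDH control probe sets, a measure of RNA integrity, were 52.5 and 1.72, against 0.729 to 0.956 on the other 34 arrays. Ct and CBA are thus described from 3 mice each. Cage, oestrous stage and time of dissection are not given in the sources used here. Whole liver was measured, so fewer cells of a type and less RNA per cell cannot be told apart.

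Enzymes of fatty acid and cholesterol synthesis follow feeding, through insulin and the SREBP transcription factors. Many cytochromes P450 and sulfotransferases differ between the sexes because liver reads the pattern of growth hormone release through STAT5. Acute phase proteins, hepcidin and metallothioneins answer to inflammation, iron and stress hormones, and clock outputs follow the hour.

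The pooled within-group SD of the 200 genes ran from 0.519 to 1.80 on the log2 scale, with a median of 0.626, which corresponds to 1.54-fold. The median over all 6273 genes was 0.247, or 1.19-fold. The limit fell inside a continuous distribution: Ifi47, Onecut2 and Depp1 were just inside (0.520, 0.520 and 0.519), and Lgals1, Ago2 and Pmvk just outside (all 0.519). The median of the mean signal was 1548 for the members and 1405 for all 6273 genes. The 12 genes with the largest SD were Sult3a1 (1.80), Pcnt (1.69), Serpina4-ps1 (1.54), Ces5a (1.34), Xist (1.29), Cyp3a16 (1.28), Cyp2b13 (1.20), Hsd3b5 (1.15), Slco1a1 (1.14), Mtm1 (1.14), Sult2a2 (1.12) and Cyp3a44 (1.11). Sulfotransferases (Sult3a1, Sult2a2) and cytochromes P450 (Cyp3a16, Cyp3a44, Cyp2b13) stand among them, and Xist is the RNA of the inactive X chromosome.

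**Figure D1:**
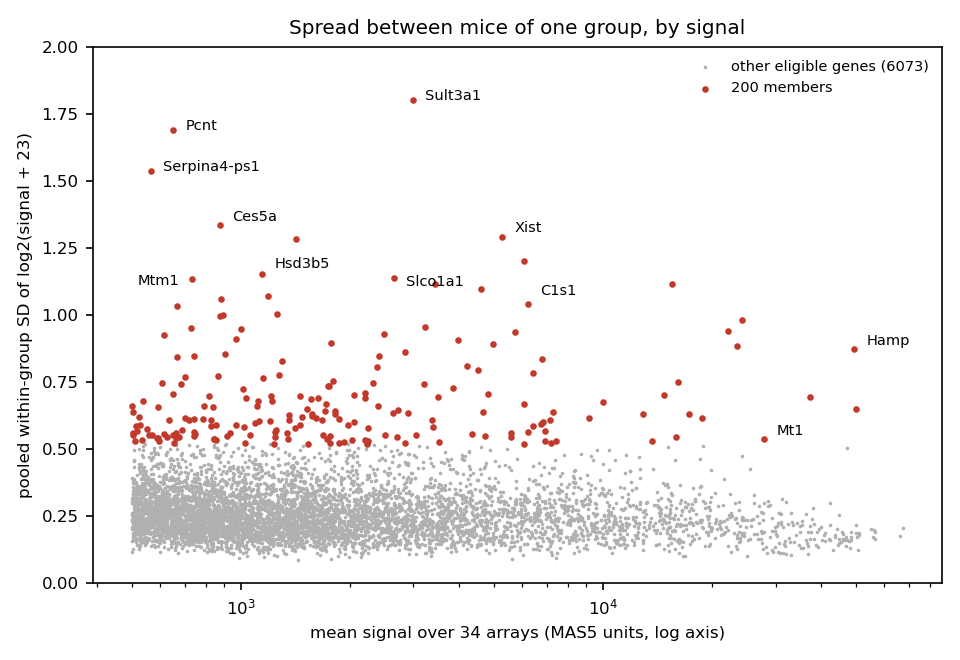
Each point is 1 of 6273 genes, placed by its mean signal over 34 arrays (log axis) and its pooled within-group SD of log2(signal + 23). The 200 members (red) lie at or above 0.519 and occur at every signal level, up to Sult3a1 at 1.80.

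Lists of liver genes were unevenly represented. A total of 79 members belonged to at least 1 of 31 lists and 121 to none, and members made up 3.19% of the 6273 genes. Genes known to be higher in female than in male liver had 12 members among 15 measured above the signal limit (median SD of the 15, 0.662), and male-biased genes 5 of 10 (0.542). Fatty acid synthesis had 9 of 21 (0.503) and cholesterol synthesis 7 of 17 (0.479). Acute phase genes had 8 of 25, the metallothionein and glucocorticoid list 5 of 13, interferon response 5 of 19, and drug metabolism 9 of 41. Fasting targets of PPAR alpha had 5 of 24, glucose and insulin response 5 of 18, bile acid genes 5 of 22, clock genes and outputs 3 of 15, iron and heme 3 of 14, and immediate early genes 3 of 12. At the other end, 0 of 8 hepatocyte markers were members, and their median SD was 0.186. Kupffer cell markers gave 0 of 9 (0.261), endothelial markers 0 of 5 (0.334), cytosolic heat shock genes 1 of 18 (0.266), periportal genes 1 of 14 (0.276) and pericentral genes 1 of 10 (0.311). Some genes stand in more than 1 list, and Mt1 and Mt2 are in both stress lists.

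Genes that differ between the sexes in mouse liver made up 7 of the 12 genes with the largest SD, although every animal was labelled female. Sult3a1, a sulfotransferase typical of female liver, read 3076, 4029, 12.2 and 565 in the 4 Pax3 mice and 3486, 4404, 1165 and 10589 in the B6 mice. It read 38.9, 2257, 17.2 and 61.1 in Apob, 29.4, 270.3, 263 and 4.55 in Cd-Het and 166, 63.8, 503 and 743 in Cd-WT mice. The Lp-Het mice gave 144, 1195, 457 and 888 and the Lp-WT mice 1677, 661, 447 and 325. Within Pax3, Apob, Cd-Het and Cd-WT livers the highest and lowest mice thus lay more than 10-fold apart. The 3 Ct mice were alike and high, at 13476, 16962 and 16219, and the CBA mice read 4501, 10441 and 2509.

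Its neighbours in behaviour were the cytochromes Cyp3a16 and Cyp3a44, which also mark female liver. Cyp3a16 read 561, 426, 1.88 and 105 in Pax3 and 2.43, 205, 11.01 and 32.7 in Apob mice, while all 8 mice of the Cd strain lay between 1770.0 and 7262. Cyp3a44 read 1794, 2705, 134 and 939 in Pax3 and 83.8, 3282, 143 and 600.3 in Apob mice. The same mice were low for both cytochromes: Pax3 replicate 3, and Apob replicates 1 and 3. Apob replicate 2 was the highest of its group for both. Across the 34 within-group deviations, Sult3a1 and Cyp3a16 had a Pearson r of 0.66 and a Spearman rho of 0.66, and r was 0.49 without the 2 mice farthest from the Sult3a1 median. These correlations describe the same data that chose the genes and carry no test.

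The 250 bases before the transcript start that the table lists for Sult3a1 are shown because it had the largest spread and because the window holds TTCNNNGAA, the letters of sites for STAT factors such as STAT5. The motif reads the same on both strands, begins 109 bases before that start and is in capitals. The window is chr10:33857472-33857721 (plus strand), from RefSeq's GRCm38.p6 table, printed 5′ to 3′ on the gene's strand. It lies inside the span RefSeq gives the gene (chr10:33851020-33879475), so it precedes an internal transcript start and not the gene's outer end.
Sult3a1: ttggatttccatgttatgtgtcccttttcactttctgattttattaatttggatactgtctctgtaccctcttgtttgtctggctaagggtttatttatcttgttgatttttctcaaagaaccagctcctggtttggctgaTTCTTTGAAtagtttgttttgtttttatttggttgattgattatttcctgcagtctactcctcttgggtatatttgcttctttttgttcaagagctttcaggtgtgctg

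TTCNNNGAA occurred in 12.9% of the 186 promoters of 149 members with an entry, counted in windows of 250 bases before to 50 after the start. It occurred in 6.49% of the promoters of all 6273 genes and 8.30% of the whole table of 32851. A match is a match of letters, and no binding was measured.

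A second set of female-biased genes shared some of these mice. The means of the clusters that hold the 2 sets (5 and 6) had r = 0.65 over 34 mice, with a rho of 0.28, and 0.40 without the 2 farthest mice. Cyp2b13, a cytochrome of the 2B family, read 8262, 6753, 258 and 5861 in Pax3 and 1414, 2876, 89.1 and 1563 in Apob mice. Cyp2b9, next to it on chromosome 7, read 13619, 12614, 5367 and 10948 in Pax3 and 10089, 13581, 2039 and 8203 in Apob mice. Hao2, a peroxisomal hydroxyacid oxidase, read 1035, 3942, 240.3 and 984 in Apob mice and 2828, 2572, 2362 and 2446 in Pax3 mice. Apob replicate 3 was the lowest of its group for all 3 genes, whereas Pax3 replicate 3 was low for the 2 cytochromes and not for Hao2. Cyp2b13 and Cyp2b9 correlated with r = 0.90 over the 34 mice. The transporters Slc22a26 and Slc22a27, adjacent on chromosome 19, belonged to the same cluster and had r = 0.60 with each other.

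Sult2a2, a bile acid and steroid sulfotransferase, differed by mouse as well as by group. It read 41772, 30853, 34891 and 39013 in Cd-Het and 803, 541, 126 and 135 in Apob mice. In Lp-Het mice it read 22851, 10648, 19922 and 594, so that replicate 4 stood far below the other 3. That mouse also had the lowest Cyp3a16 of its group (7.13 against 225 to 679), the lowest Cyp2b9 (8096 against 14941 to 18825) and the highest Hsd3b5 (4410.0 against 222 to 1657). Of the 34 arrays used, its array had the highest 3'/5' ratio of the actin control probe sets (2.93) and the highest median signal (144). Its median correlation with the other arrays was the lowest of the 34 (0.923). The part of array quality in these values was not tested.

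Male-biased genes varied less than female-biased ones as a list, with a median SD of 0.542 against 0.662, but held 2 of the 12 genes with the largest SD. Hsd3b5, a steroid dehydrogenase characteristic of male liver, read 880.1, 1629.8, 7895 and 4273 in Apob mice and 469, 835, 309.6 and 654 in B6 mice. It read 97.1, 460.3, 9.08 and 184 in Pax3 and only 9.38, 44.2, 56.8 and 50.4 in Cd-Het mice. Slco1a1, an organic anion transporter also higher in males, read 2895, 4301, 6874 and 6549 in Apob, 165, 1139, 60.3 and 815 in Pax3 and 25.9, 259, 269 and 121 in Cd-Het mice. Both genes ranked the Apob mice alike at the top end, with replicates 3 and 4 above replicates 1 and 2, and both were lowest on Pax3 replicate 3 and Cd-Het replicate 1 in their groups. Their deviations correlated with r = 0.86 (rho 0.88, and 0.81 without the 2 farthest mice). Cyp2d9, a male-biased cytochrome, read 6301, 1131, 13125 and 6724 in Apob mice, the reverse order of Hao2, and the pair gave r = -0.80 (rho -0.64, and -0.59 without the 2 farthest mice).

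Correlations among the 12 female-biased members were mostly positive (57 of 66 pairs, median r 0.39), as were those among the 5 male-biased members (10 of 10 pairs, median 0.48). Between the lists they were mixed, with 21 of 60 pairs positive, a median of -0.12 and a range from -0.80 to 0.63. The positive end includes pairs in which both genes were low on Pax3 replicate 3.

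**Figure D2:**
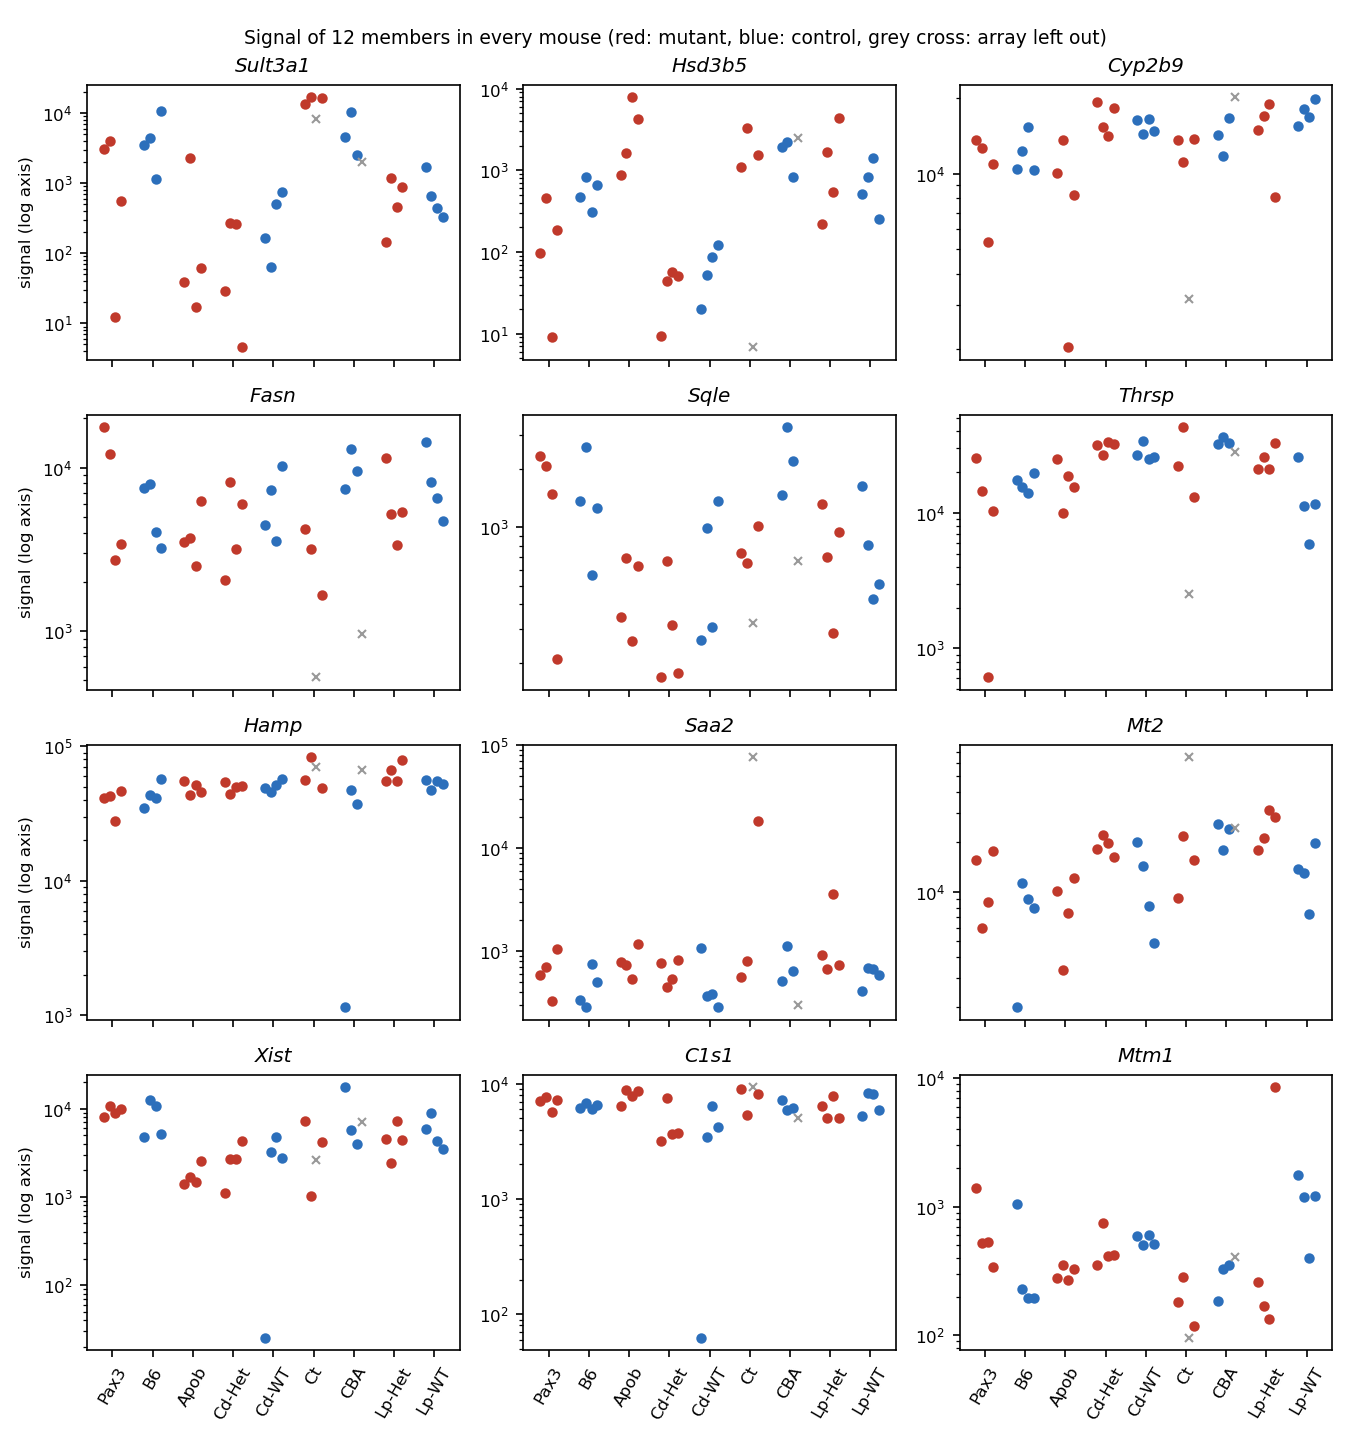
Signal of 12 members in each mouse (log axes), by group; red points are mutant mice, blue points controls, and grey crosses the arrays left out of the selection. Some genes are scattered in most groups (Sult3a1, Sqle), whereas Hamp and C1s1 owe their spread to 1 mouse (CBA replicate 1 and Cd-WT replicate 1), and Mtm1 has its highest value on Lp-Het replicate 4.

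To see which members moved together, the 200 genes were grouped by the correlation of their deviations from the group means over 34 mice (average linkage of 1 minus r, joined up to 0.5). This gave 6 clusters of 5 or more genes, made from the values that chose the members. They held 43, 24, 10, 8, 6 and 5 genes. Among all pairs of members, 1.77% had r above 0.8, against 0.392% of the pairs of all 6273 genes, while the median absolute r was 0.214 against 0.249.

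**Figure D3:**
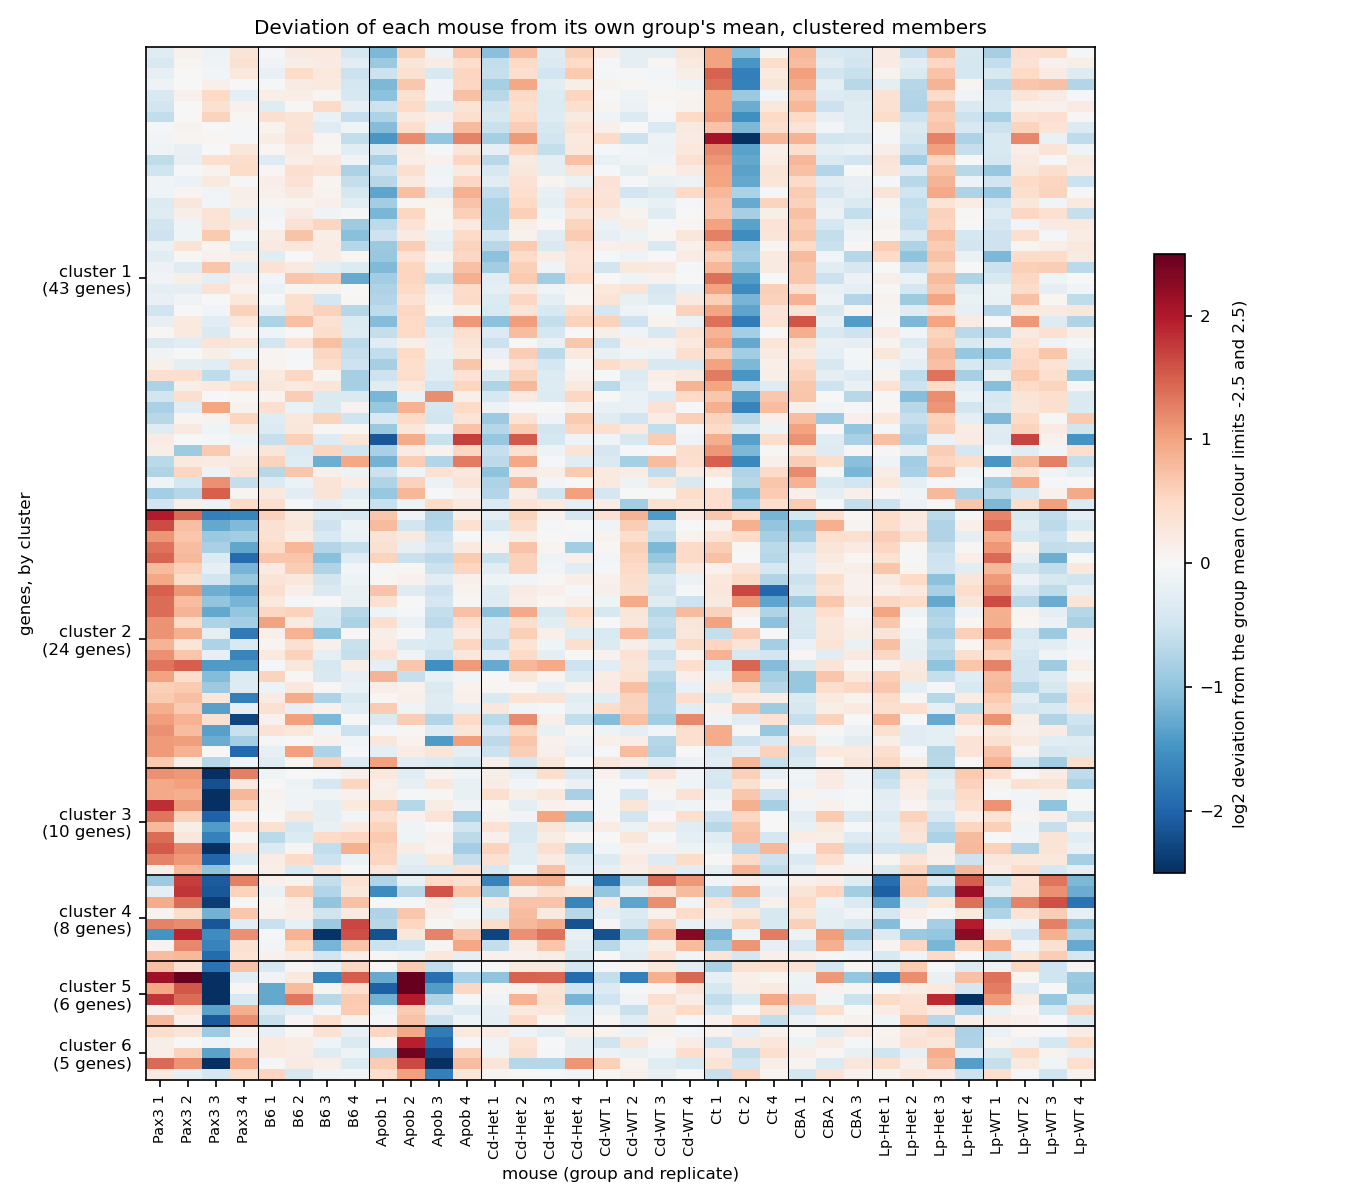
Rows are the genes of the 6 clusters, columns the 34 mice in group order, and colour the log2 deviation of a mouse from its group's mean. Cluster 1 separates Ct replicate 1 from Ct replicate 2 (mean deviations 0.93 and -1.22), cluster 2 separates the Pax3 mice, and clusters 3 to 5 are lowest on Pax3 replicate 3.

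The second cluster, of 24 genes, was made largely of lipid synthesis. It held 7 enzymes of cholesterol synthesis (Sqle, Fdps, Idi1, Msmo1, Cyp51, Dhcr7 and Nsdhl) and the fatty acid enzymes Acss2, Elovl6, Fasn, Acly, Acaca, Acacb and Me1. With them went Aqp8, a water channel, Rdh11, a retinol dehydrogenase, and Fabp5, a fatty acid binding protein. The median r within the cluster was 0.70. Fasn, the fatty acid synthase, read 17681, 12096, 2730.5 and 3431 in Pax3 mice and 14304, 8156, 6488 and 4708 in Lp-WT mice. Sqle, the squalene epoxidase, read 2329, 2067, 1476 and 209 in Pax3 and 1627, 814, 424 and 510.1 in Lp-WT mice. Replicate 1 was the highest of each group for both genes. In Pax3 the 2 genes parted on replicate 3, where Fasn was the lowest of the group and Sqle was within 2-fold of the highest. Idi1, an isomerase of the sterol pathway, read 6035, 5098, 2341 and 790.0 in Pax3 mice. All 7 cholesterol enzymes of the cluster were lowest on Pax3 replicate 4 and, in Lp-WT, highest on replicate 1.

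The 7 cholesterol enzymes were the more tightly coupled, with all 21 pairs positive, a median r of 0.85 and a range from 0.69 to 0.94. The 9 fatty acid members gave 33 of 36 positive pairs and a median of 0.67, and pairs between the pathways a median of 0.59 (57 of 63 positive). The closest pairs were Idi1 with Cyp51 (r 0.94, rho 0.90, and 0.92 without the 2 farthest mice) and Fasn with Acly (0.91, 0.92 and 0.89). Fasn with Sqle reached 0.70 (rho 0.72, 0.76 without the 2 farthest mice). Genes outside the 200 whose deviations were nearest to the cluster mean were Pmvk, Lss and Sc5d, which also act in cholesterol synthesis, with r of 0.88, 0.87 and 0.86. A second probe set gave the same picture for Idi1 (r 0.97 between the probe sets) and Fabp5 (0.99).

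The sequences before the start sites of 5 of these enzymes are shown because the genes moved together and carry the same short motif, CCAAT, which the factor NF-Y recognises beside sterol-responsive elements. They are the 250 bases before the start in RefSeq's GRCm38.p6 table, 5′ to 3′ on the gene's strand, with CCAAT or its reverse complement in capitals. They lie at chr13:8885356-8885605 (plus strand) for Idi1, chr11:120824548-120824797 (minus strand) for Fasn, chr5:4104698-4104947 (minus strand) for Cyp51, chr8:64733579-64733828 (minus strand) for Msmo1 and chrX:72918271-72918520 (plus strand) for Nsdhl.
Idi1: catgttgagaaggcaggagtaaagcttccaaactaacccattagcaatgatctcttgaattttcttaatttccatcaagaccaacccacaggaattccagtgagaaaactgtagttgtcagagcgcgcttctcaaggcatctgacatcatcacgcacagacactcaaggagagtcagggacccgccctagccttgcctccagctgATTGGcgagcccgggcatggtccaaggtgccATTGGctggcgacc
Fasn: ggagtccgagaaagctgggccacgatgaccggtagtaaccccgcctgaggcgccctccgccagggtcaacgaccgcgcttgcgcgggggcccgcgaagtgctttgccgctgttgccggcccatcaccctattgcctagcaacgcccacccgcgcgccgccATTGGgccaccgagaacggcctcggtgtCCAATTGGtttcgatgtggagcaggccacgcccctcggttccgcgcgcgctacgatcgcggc
Cyp51: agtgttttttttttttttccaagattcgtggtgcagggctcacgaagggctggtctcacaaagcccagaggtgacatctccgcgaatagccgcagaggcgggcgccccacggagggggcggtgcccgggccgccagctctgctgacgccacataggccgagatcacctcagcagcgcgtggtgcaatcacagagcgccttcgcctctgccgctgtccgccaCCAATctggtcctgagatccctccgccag
Msmo1: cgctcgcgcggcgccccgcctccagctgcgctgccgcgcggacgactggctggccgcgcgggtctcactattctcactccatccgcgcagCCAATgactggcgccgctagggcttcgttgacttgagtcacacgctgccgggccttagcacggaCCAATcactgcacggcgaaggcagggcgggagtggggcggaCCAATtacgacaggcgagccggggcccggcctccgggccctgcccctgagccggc
Nsdhl: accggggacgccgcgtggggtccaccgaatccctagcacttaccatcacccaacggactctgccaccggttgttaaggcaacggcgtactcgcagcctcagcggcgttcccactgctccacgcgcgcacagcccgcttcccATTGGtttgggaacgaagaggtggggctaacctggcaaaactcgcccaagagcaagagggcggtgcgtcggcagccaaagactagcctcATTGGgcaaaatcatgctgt

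The motif begins 45 and 14 bases before the start of Idi1, 29 before that of Cyp51, and 160, 96 and 55 before that of Msmo1. In Nsdhl it begins at 109 and 20, and in Fasn at 90, 62 and 59, where the last matches overlap on opposite strands. The Fasn window lies inside the span RefSeq gives the gene (chr11:120805958-120825166) and precedes an internal transcript start, whereas the other 4 windows abut the gene's outer start. The 5 genes were picked after the match was seen. In the whole window of the table, 250 bases before to 50 after the start, CCAAT on either strand occurred in 12 of the 24 promoters listed for the cluster (50%) and in 44.1% of the 186 promoters of 149 members that had an entry. It occurred in 37.8% of the promoters of all 6273 genes and in 37.4% of all 32851 promoters, and it is a common motif. TATAAA, the TATA box, occurred in 17.2% of the members' promoters, 7.84% of those of all 6273 genes and 13.6% of the whole table. The shares are counts of letters and were not tested.

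Pax3 replicate 3 held the largest deviation of 38 members and 9.35% of the members' summed squares, the highest share of the 34 mice. Of the squares of all 6273 genes it held 6.61%, below the 7.70% of Ct replicate 2. The members' median absolute deviation was 0.557 on this array, below Lp-Het replicate 3 (0.605) and Ct replicate 2 (0.578). Of the 200 genes, 15 were more than 2-fold above the group mean on this array and 43 more than 2-fold below it. On Ct replicate 2, next in the number of largest deviations (29 members), these counts were 7 and 39. The choice of genes depended on Pax3 replicate 3 to a degree: without it 171 of the 200 were chosen again, the lowest value among the 34 such refits, in which 106 genes were chosen every time. Medians of the SD within groups were highest in Pax3 (0.725) and Ct (0.729) and lowest in Cd-WT (0.386). For all 6273 genes they were 0.223, 0.305 and 0.162.

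Genes known from the metabolism and secretion of hepatocytes were among the lowest on this array. Thrsp, a regulator of lipogenesis, read 25334, 14551, 611 and 10299 in the 4 Pax3 mice. Mup3, a major urinary protein, read 37209, 36378, 3021 and 34209. Wfdc21, a whey acidic protein domain gene, read 18676, 17909, 720.1 and 20312. In these genes the other 3 mice lay within 3-fold of one another, and the third stood far below them. Cyp2c54, a cytochrome, read 4524, 6232, 438 and 2422, with the same mouse lowest.

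Other genes were high on this array, among them single genes of macrophages and matrix, although the sum of 10 Kupffer cell markers was not highest there. Slpi, a protease inhibitor of epithelia, read 311, 203, 3095 and 307 in Pax3 mice. Lgals3, a galectin of activated macrophages, read 551, 690.2, 3908 and 419.9. Clec7a, the beta-glucan receptor of myeloid cells, read 737, 748, 4065 and 696. The 3 genes were alike in having 1 high mouse, and Slpi with Lgals3 had r = 0.67 over 34 mice (rho 0.33, and 0.25 without the 2 farthest mice), so the relation rests on few mice. Col3a1, a fibrillar collagen, read 1658, 2526, 11305 and 1367. Egr1, an immediate early transcription factor, read 1045, 1638, 8095 and 869. Gsta2, an inducible glutathione transferase, read 3579.9, 1228, 16136 and 1181. For these 6 genes the third mouse was the highest of its group, and above every B6 mouse as well.

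Some sums of marker genes were extreme on the same array. The sum over 9 hepatocyte markers was 279868, the lowest of the 34 (median 367148), and that over 7 endothelial markers 8075, also the lowest (median 11876). The sums of 9 B cell and plasma cell markers (21139, median 7429), 9 stellate cell markers (44332, median 27672) and 4 adipose markers (2094, median 1321) were the highest of the 34. Col3a1 is itself one of the stellate markers. Pancreas acinar markers were lowest there (1555, median 3073). Only 1 of 9 acinar and 1 of 4 adipose markers had a mean signal above 500, so neither sum is a clear measure of another tissue. The acinar one, Cela1, itself tracked cluster 4 (r = 0.75), which was lowest on this array. The sums of Kupffer cell, neutrophil, T and NK cell, erythroid, biliary and skeletal muscle markers were neither highest nor lowest on this array. The GAPDH 3'/5' ratio was 0.849 and the actin ratio 1.78, both inside the range of the other arrays. The part of other cell types in the result was not tested.

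The Ct mouse that the selection left out showed part of the same pattern. Against the mean of the other 3 mice of its group, Thrsp differed by -4.62 on Pax3 replicate 3 and by -3.18 on Ct replicate 3 (log2). The values were -2.84 and -5.90 for Hsd3b5, -4.62 and -3.80 for Cyp2b13, 3.42 and 3.30 for Slpi, 2.80 and 3.02 for Lgals3, and 2.45 and 2.28 for Clec7a. Mup3 (-3.56 and 0.77) and Wfdc21 (-4.67 and 0.54) were far down on Pax3 replicate 3 and not on Ct replicate 3. On Pax3 replicate 3, 59 of the 200 genes were more than 2-fold lower and 20 higher, and on Ct replicate 3, 61 and 25. Of these, 26 were lower on both arrays, 6 higher on both and 9 opposed. The overlap was not counted over all 6273 genes or for unrelated arrays. Pax3 replicate 3 also helped to choose the 200 genes, so the counts do not measure how alike the 2 arrays are. The opposed genes include Saa2 (-1.15 and 5.20), an acute phase protein, Gsta2 (3.20 and -1.89) and Krt23 (1.33 and -4.50), a keratin. Over the 200 genes the deviations of the 2 arrays had r = 0.27, the highest that Ct replicate 3 reached with any of the 31 arrays outside Ct, whose values went down to -0.29. The next were B6 (0.22), Cd-Het (0.17), Cd-WT (0.15) and Lp-Het (0.12), in each case replicate 3. Over all 6273 genes the value for Pax3 replicate 3 was 0.32, so the likeness was no larger in the members. There Lp-Het replicate 4 came next (0.22), and replicate 3 gave 0.20 in B6, 0.20 in Cd-WT, 0.13 in Cd-Het and -0.13 in Lp-Het. The run of replicate 3 arrays thus did not hold over all genes. Genes are not independent replicates.

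**Figure D4:**
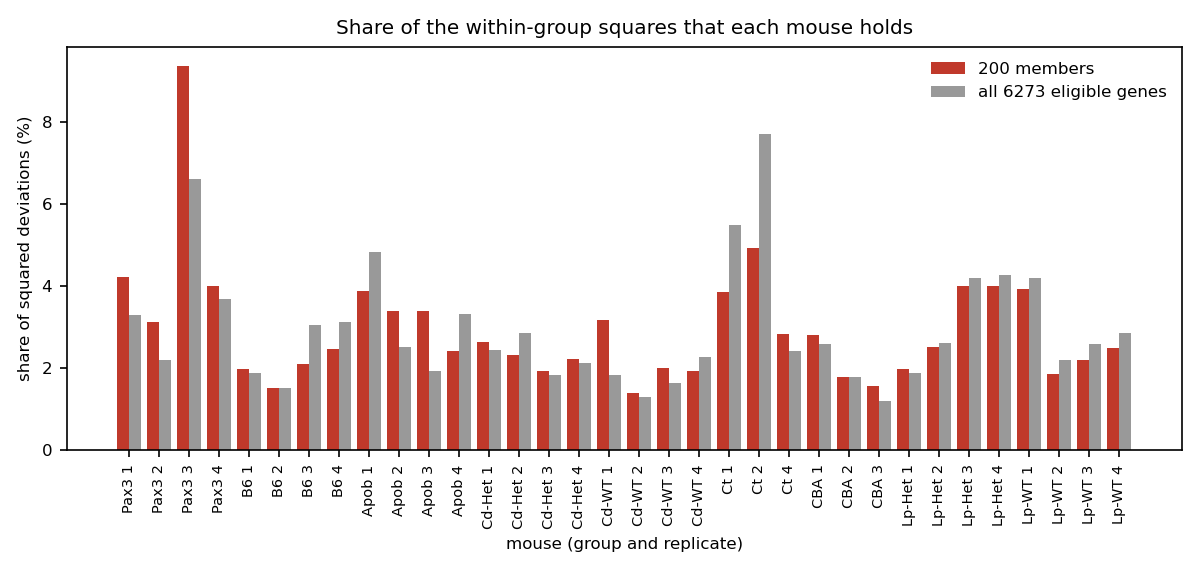
Bars give the percentage of the summed squared within-group deviations that each of 34 mice holds, for the 200 members (red) and for all 6273 genes (grey); bars start at 0. Pax3 replicate 3 holds 9.35% of the members' squares, and Ct replicate 2 holds more of all genes' squares than of the members'.

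Clusters 3, 4 and 5 leaned on Pax3 replicate 3. Cluster 3 (10 genes, among them Wfdc21, Sult2a8, Mup3, Thrsp, Dct and Leap2) had a mean deviation of -2.30 there, and its median r fell from 0.73 to 0.47 without that mouse. Cluster 4 (8 genes, with Slco1a1, Hsd3b5, Cyp2c54, Lifr, Mup10 and Serpina4-ps1) went from 0.60 to 0.50, and cluster 5 (6 genes, with Sult3a1, Cyp3a44 and Cyp3a16) from 0.64 to 0.43. The lipid cluster (0.70 and 0.70) and cluster 6, the Cyp2b and Slc22a genes (0.72 and 0.69), hardly moved. Orm1, an acute phase glycoprotein outside the 200, tracked cluster 3 most closely, with r = 0.95.

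Hepcidin, the liver hormone that limits iron export, owed its place to 1 mouse. Hamp read 1145, 47104 and 37156 in the 3 CBA mice, and from 27681 to 83163 on the 33 other arrays used. Its neighbour and near copy Hamp2 read 4652, 53339.9 and 48795 in CBA mice. CBA replicate 1 was thus far below the other CBA mice for Hamp. It alone held 62.0% of the summed squares of Hamp. The deviations of both genes correlated with r = 0.95, and a second Hamp probe set with the first at 0.997, but probe sets of such close copies can share targets.

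The 250 bases before the starts of both hepcidin genes are shown because the genes lie side by side, move together and hold the same match to TTCNNNGAA, the letters of STAT sites, a palindrome that reads the same on both strands. The match is in capitals. The windows are chr7:30944030-30944279 (minus strand) for Hamp and chr7:30924182-30924431 (minus strand) for Hamp2 in RefSeq's GRCm38.p6 table.
Hamp: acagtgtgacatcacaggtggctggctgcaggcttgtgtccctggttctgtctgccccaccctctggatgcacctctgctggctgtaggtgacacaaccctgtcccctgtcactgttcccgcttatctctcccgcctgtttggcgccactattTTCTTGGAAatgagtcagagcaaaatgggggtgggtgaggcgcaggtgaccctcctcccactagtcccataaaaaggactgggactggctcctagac
Hamp2: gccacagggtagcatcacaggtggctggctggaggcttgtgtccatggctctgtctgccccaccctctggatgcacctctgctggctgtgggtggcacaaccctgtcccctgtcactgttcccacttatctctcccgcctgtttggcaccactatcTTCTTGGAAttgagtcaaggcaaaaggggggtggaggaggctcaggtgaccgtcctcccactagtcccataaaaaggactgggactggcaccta

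The match begins 97 bases before the start of Hamp and 94 before that of Hamp2. Shifted by 3 bases, the windows were identical at 227 of 247 positions (91.9%).

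The serum amyloid genes, which rise in the acute phase, peaked in other mice. Saa2 read 567, 808 and 18453 in the 3 Ct mice used and 929.9, 668, 3597 and 729 in Lp-Het mice. Saa1, its neighbour, read 3102, 4339 and 34495 in Ct and 4574, 3501, 21197 and 4616 in Lp-Het mice. Ct replicate 4 and Lp-Het replicate 3 were therefore the high mice for both genes, which correlated with r = 0.93. Lcn2, an iron-binding acute phase protein, read 663, 699 and 3725 in Ct and 658, 439, 2413 and 457 in Lp-Het mice, with the same animals highest. It had r = 0.73 with Saa2 (rho 0.58, and 0.53 without the 2 farthest mice). Hamp did not follow Saa2 (r = 0.06). On Ct replicate 3, which was left out, Saa1 read 86607, Saa2 76619 and Lcn2 60792.

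The metallothioneins Mt1 and Mt2, which bind zinc and copper, are adjacent on chromosome 8 and moved as a pair (r = 0.95). Mt2 read 1984, 11279, 9036 and 7916 in B6 mice, 20055, 14214, 8235 and 4866 in Cd-WT mice and 10116, 3337, 7449 and 12043 in Apob mice. Mt1 read 5439, 22749.7, 20562 and 18562 in B6, 37201, 26612, 20252 and 12279.6 in Cd-WT, and 24239, 9558, 16632 and 22164 in Apob mice. B6 replicate 1 and Apob replicate 2 were lowest of their groups for both. Mt2 had r = 0.30 with Lcn2 (rho 0.22, and 0.27 without the 2 farthest mice) and -0.02 with Zbtb16 (rho -0.08, and -0.12), a glucocorticoid-induced factor that is itself a member.

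Several of the largest spreads came from 1 mouse. For 10 members a single array held more than 50% of the squares, and without its most deviant mouse the SD of 95 members fell below the limit of 0.519. The median share of the most deviant mouse was 18.6% for members and 17.2% for all 6273 genes. C1s1 had the largest share (68.0%), followed by Wfdc21 (62.8%) and Hamp (62.0%).

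On Cd-WT replicate 1, Xist, the RNA that coats the inactive X chromosome of female cells, read 25.4, against 3232, 4738 and 2762 in the other Cd-WT mice. Its other probe sets gave 19.3 against 102 to 221, and 204 against 4017 to 8809, so all 3 were lowest on that array. The Y-linked genes Eif2s3y, Kdm5d and Uty, read by 9 probe sets, lay between 1.30 and 50.6 there, and between 0.267 and 145 on the other 35 arrays. Erdr1, a gene of the pseudoautosomal region, read 577, 2077, 1901 and 2088 in Cd-WT mice, with the same mouse lowest. C1s1, a serine protease of the complement cascade, read 62.7, 3469, 6393 and 4239, and was never below 3191 on the other 33 arrays used. The X-linked Eif2s3x read 3983 and 4221 on its 2 brighter probe sets, against 4432 to 6518 in the other Cd-WT mice, and 935 on the third, against 796 to 1143. The X-linked Ddx3x was within the range of the other Cd-WT mice on 2 of its 3 probe sets (5420 against 5387 to 6842, and 1095 against 870 to 1205) and below it on 1 (4201 against 4581 to 6716). The X-linked Kdm6a was lower there than in the other Cd-WT mice on every probe set. Its brighter ones read 402 against 434 to 687, and 239 against 291 to 515. Jpx, also X-linked, was below the others on its brighter probe set (249 against 299 to 621) and within their range on the dimmer (109 against 74.6 to 154). Kdm5c was within range on its brightest probe set (416 against 369 to 517) and mixed on the rest. Tsix read 3.88 against 10.5 to 42.0. The Y-linked genes and these X-linked genes were looked at after the Xist values were seen.

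Xist also varied in other groups. It read 7199, 1014 and 4143 in Ct, 17469, 5751 and 4017 in CBA and 1098, 2683, 2666 and 4314 in Cd-Het mice. Ct replicate 2 was the lowest of the Ct mice used on every Xist probe set (1014, 271 and 1088). The actin 3'/5' ratio of that array was 2.65. CBA replicate 1 was the highest of the CBA mice used on every Xist probe set. The brighter of the other Xist probe sets followed the chosen one across the 34 mice (r 0.92, rho 0.85). Xist with C1s1 gave r = 0.88 (rho 0.71, and 0.65 without the 2 farthest mice) and Xist with Erdr1 0.61 (rho 0.57, and 0.50).

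Mtm1, an X-linked phosphoinositide phosphatase, read 259, 169, 133 and 8503 in Lp-Het mice, and replicate 4 stood far above the others. That array also had the highest actin 3'/5' ratio of the 34 used (2.93). Of the other 2 probe sets of the gene, one showed the same mouse high (1634 against 67.2 to 89.4) and one did not (347 against 474 to 539). The brighter of these gave r = -0.24 with the chosen probe set over the 34 mice.

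A second probe set, with a mean signal above 100, existed for 103 members. Its within-group deviations correlated with those of the chosen probe set with a median r of 0.79, above 0.8 for 47 members and below 0.2 for 14. For the 3486 genes of the 6273 with a second probe set the median was 0.47. Agreement was best for Hamp (0.997), Thrsp (0.987), Fabp5 (0.986), Saa1 (0.982) and Lpin1 (0.979), and worst for Vps53 (-0.46), E2f5 (-0.29), Mtm1 (-0.24), Zdhhc14 (-0.21) and Akr1e1 (-0.21). Pcnt, a centrosome scaffold and the gene with the next largest SD after Sult3a1, was also poor: the chosen probe set read 53.5, 697, 242 and 1206 in B6 mice, while the other read 225, 236, 249 and 205 (r 0.08). Ces5a, a carboxylesterase, read 45.5, 1150.2, 44.4 and 69.4 in Lp-Het and 1484, 132 and 1368 in CBA mice, and its other probe sets stayed at mean signals of 43.1 and 95.5. The spread of Pcnt and Ces5a is that of 1 probe set.

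The largest cluster, of 43 genes, was led by genes of receptors, chromatin, splicing and the cytoskeleton. Its genes with the highest mean r were Lrp1, a lipoprotein receptor, Trim56, a ubiquitin ligase, Srrm2, a splicing factor of nuclear speckles, Zbtb20, a liver transcription factor, Myh9, a non-muscle myosin, and Kdm6b, a histone demethylase. It also held Apob, Egfr and the nuclear RNA Neat1. Lrp1 read 4305, 1006 and 2253 in Ct, 1066, 3455, 2169 and 3831 in Apob and 1594, 3854, 3905 and 2791 in Lp-WT mice. Egfr, the epidermal growth factor receptor, read 3472, 384 and 1345 in Ct, 1718, 6036, 2347 and 9511 in Apob, and 928, 4537, 6249.6 and 1703 in Lp-WT mice. Ct replicate 2 and Apob replicate 1 were the lowest of their groups for both genes, and Lp-WT replicate 1 as well. The cluster's mean deviation ran from 0.93 on Ct replicate 1 to -1.22 on Ct replicate 2, with -0.84 on Apob replicate 1. Lrp1 and Apob had r = 0.94. S100a10, a small annexin partner among the members, moved the other way, with r = -0.88 to Abcc3 of this cluster.

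The genes of this cluster were long: their median span in RefSeq was 58620 bp, against 22504 bp for all 6273 genes and 23339 bp for the members. Its mean deviation correlated with the actin 3'/5' ratio at r = -0.50 (rho -0.50, and -0.53 without the 2 farthest arrays) and with the GAPDH ratio at -0.42 (rho -0.39, and -0.36). On Ct replicate 2 the actin ratio was 2.65 and the GAPDH ratio 0.926, near the top of the ranges of the 34 arrays (1.63 to 2.93, and 0.729 to 0.956). The 3'/5' ratio of the pyruvate carboxylase control probe sets did not follow cluster 1 (r -0.08, rho -0.07, and -0.21 without the 2 farthest arrays). For the lipid cluster r was 0.10 with the actin, 0.17 with the GAPDH and -0.27 with the pyruvate carboxylase ratio. The median r within cluster 1 was 0.73, and 0.67 without Ct replicate 2. The part of RNA integrity in this cluster was not tested. Norad, Ago2 and Upf2, all outside the 200, tracked it with r of 0.96, 0.95 and 0.95.

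Members with daily or feeding rhythms varied within most groups. Cyp7a1, which starts the conversion of cholesterol to bile acids, read 1843, 10527, 10950.3 and 3967 in B6, 2627, 3578, 4318 and 15055 in Cd-Het and 1705, 1831, 7357 and 2284 in Lp-Het mice. Usp2, a deubiquitinase under clock control, read 1102, 1950.2, 3495 and 1382 in B6, 2527, 1354, 2111 and 2558 in Cd-Het, and 781, 1598, 1921 and 826 in Lp-Het mice. Noct, a clock-controlled phosphatase, read 3121, 1913, 3586 and 1925 in B6, 1109.8, 763, 1639 and 2175 in Cd-Het, and 1263, 2217, 4725 and 1197 in Lp-Het mice. The same mouse was highest for all 3 genes in each of these groups: B6 replicate 3, Cd-Het replicate 4 and Lp-Het replicate 3. In Cd-Het the Usp2 values of replicates 4 and 1 were nearly equal (2558 and 2527). The other groups are not given here, so this is no count over all groups. Over 34 mice, Usp2 had r = 0.71 with Noct (rho 0.60, 0.64 without the 2 farthest mice) and Cyp7a1 had r = 0.65 with Usp2 (0.56, 0.63). Cyp7a1 with Noct was weaker (r 0.50, rho 0.40, and 0.37 without the 2 farthest mice). The third member of the clock list, Leap2, did not go with them (r -0.10 and -0.14 with the other members), so 1 of the 3 pairs was positive.

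Fasting targets of PPAR alpha, the fatty acid receptor, went together in part. Acot1, a cytosolic thioesterase, read 985, 1719.9, 2476 and 4329.7 in Pax3 and 376, 474, 1385 and 4115 in Lp-WT mice. Cyp4a14, a fatty acid hydroxylase, read 13356, 16099.8, 19570.1 and 31263 in Pax3 and 3396, 10677, 13988 and 29749 in Lp-WT mice. Both genes were highest on replicate 4 of either group, and correlated with r = 0.69 (rho 0.65, 0.58 without the 2 farthest mice). Pax3 replicate 4 was also the mouse with the lowest sterol enzymes. All 10 pairs among the 5 members of this list were positive, with a median r of 0.38.

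Interferon-induced members were spread over several mice: the most deviant mouse held 13.6% to 16.8% of the squares for Cxcl9, Rsad2, Ifi27l2a and Ifi47, and 27.4% for Gbp6. Cxcl9, a chemokine, read 4287, 1203, 809 and 1591 in Lp-Het and 739, 1929.8, 558 and 1091 in Lp-WT mice, and Gbp6, a guanylate binding protein, 1172, 776, 469 and 572 in Lp-Het and 472, 2579, 595 and 642 in Lp-WT mice. The 5 members gave 10 positive pairs of 10, with a median r of 0.53, and Cxcl9 with Gbp6 had r = 0.62 (rho 0.54, and 0.55 without the 2 farthest mice). By contrast the 3 immediate early members Gadd45g, Egr1 and Dusp1 did not move together (1 of 3 pairs positive), nor did the 5 glucose and insulin members (3 of 10 pairs).

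The group means, which the selection did not use, were compared with limma on 34 arrays, over 13172 genes with Benjamini-Hochberg adjustment within a comparison. All 200 members passed its filter on low values. A gene was called at an adjusted p below 0.05, two-sided. A large spread widens a gene's standard error, so these genes need a larger difference to be called. Pax3 and Apob share the B6 mice as controls, so the 2 comparisons are not independent.

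Apob heterozygotes gave the most calls. Of the 200 members, 22 were called, 5 higher and 17 lower, while 2.49% of all genes tested were called (1.29% higher, 1.20% lower). The median absolute log2 difference was 0.57 for the members and 0.21 for all genes, and the median signed difference -0.27 and 0.02. Group means scatter more for genes chosen for their spread between mice. A larger absolute difference of the members is thus in part built in and is no separate evidence of a group effect. Apob itself, the backbone of lipoproteins that liver secretes and the mutated gene, read 2654, 11144, 5339 and 12260.2 in heterozygotes and 25684, 27268, 25069.9 and 17299 in B6 mice. It fell, by 1.82 ± 0.40 (SE) on the log2 scale (limma adjusted p = 0.0107), with no overlap between the groups. Its probe set belongs to cluster 1, of which 3 genes were called lower in this comparison and 37 of 43 had negative differences. These genes were grouped because they move together, so the shared sign is not 43 separate results. In Lp-Het 36 of them were negative and in Pax3 10.

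Female-biased members were lower in Apob mice. Sult2a2 read 803, 541, 126 and 135 against 3480.3, 8662, 7641 and 6906 in B6 mice, all 4 below all 4, a log2 difference of -4.29 ± 0.71 (SE) (limma adjusted p = 0.000678). Sult3a1 differed by -4.66 ± 1.13 (SE) (adjusted p = 0.0207) and Cyp3a16 by -3.29 ± 0.81 (SE) (adjusted p = 0.0225). Apob replicate 2 was inside the B6 range of Sult3a1, and for Cyp3a16 its 205 was barely below the lowest B6 mouse, at 208. Slc22a27 read 569.9, 879, 113 and 521 against 2403, 1236, 1546 and 1568, without overlap (-1.90 ± 0.34 (SE), adjusted p = 0.00153), and Hao2 differed by -2.10 ± 0.41 (SE) (adjusted p = 0.00347), with Apob replicate 2 inside the B6 range. Of the whole female-biased list, 5 of 15 tested genes were called lower and 0 higher, with a median log2 difference of -1.09 against 0.02 for all genes. Male-biased Hsd3b5 and Slco1a1 were not called (2.27 ± 0.73 (SE), adjusted p = 0.0884, and 1.27 ± 0.72 (SE), adjusted p = 0.401). Of the 16 male-biased genes tested 1 was called higher.

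Other called members were Erdr1, which read 616, 267, 174 and 196 against 2201, 2677, 4296 and 4345 (-3.45 ± 0.41 (SE), adjusted p = 1.0e-05), and Ccnd1, the G1 cyclin, at 545, 2062, 625 and 2080.5 against 4391, 6587, 5320.3 and 3550.0 (-2.11 ± 0.37 (SE), adjusted p = 0.00143). In both genes, which were picked from the called members, every Apob mouse was below every B6 mouse. Cyp7a1 (-2.17 ± 0.57 (SE), adjusted p = 0.0359), Alas1, the first enzyme of heme synthesis (-1.58 ± 0.39 (SE), adjusted p = 0.024), and Noct (-1.51 ± 0.40 (SE), adjusted p = 0.0366) also fell. The noncoding Hectd2os rose most. It read 3105, 2395, 2236 and 1161 in Apob mice against 321, 434, 261 and 778 in B6 mice, without overlap (2.29 ± 0.58 (SE), adjusted p = 0.0263), followed by 9130409I23Rik (1.91 ± 0.39 (SE), adjusted p = 0.00551).

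These calls leaned on few mice. The count of 22 fell to 7 without Apob replicate 1, to 9 without B6 replicate 2, to 11 without Apob replicate 3, to 13 without B6 replicate 3 and to 14 without B6 replicate 1. Sult2a2, Erdr1, Ccnd1, Slc22a27, Hao2 and 9130409I23Rik stayed called in all 8 refits that left out 1 mouse of either group. Apob was lost only without Apob replicate 1 (adjusted p = 0.0675), and the calls of Sult3a1, Cyp3a16, Cyp7a1, Alas1, Noct and Hectd2os each ended in 4 to 7 of the 8. With all 36 arrays in the fit, 8 members were called, all of them among the 22.

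In Ct mice, 11 members were called against CBA, 5 higher and 6 lower, beside 1.82% of all genes tested (0.873% higher, 0.949% lower). The groups are different stocks, and 3 mice of each were used. Cyp4a14 read 14502, 9210.3 and 31499 in Ct and 2164, 422 and 2608 in CBA mice (3.56 ± 0.55 (SE), adjusted p = 7.6e-05), and Nnmt, the nicotinamide methyltransferase, 13473, 17472 and 13947 against 2774, 2705 and 1813 (2.63 ± 0.44 (SE), adjusted p = 0.000257). Ctse, an intracellular aspartic protease, read 177, 112 and 125 against 1431, 1323 and 1515 (-3.18 ± 0.49 (SE), adjusted p = 6.4e-05). Klf12 and Bach2, transcriptional repressors, were lower (-2.94 ± 0.51 (SE), adjusted p = 0.000425, and -2.46 ± 0.46 (SE), adjusted p = 0.00128). Sucnr1, the succinate receptor, differed by -2.25 ± 0.49 (SE) (adjusted p = 0.00754). For all 6 of these genes the 3 Ct mice and the 3 CBA mice did not overlap. The 6 were the called members with the largest differences, and the share of all genes without overlap was not counted. The lack of overlap is thus no separate evidence. Ctse, Cyp4a14, Nnmt, Klf12, Bach2 and Akr1e1 stayed called in all 6 refits without 1 mouse, and Sucnr1 was lost without Ct replicate 4 or CBA replicate 2 (highest adjusted p = 0.0609). All 24 genes of the lipid cluster had negative differences here, with a median of -1.15 against -0.04 for all genes. The 24 were grouped because they move together on these arrays, so their shared sign is not 24 separate results. Negative differences numbered 23 in Cd-Het, where no gene was called, 20 in Apob, 12 in Lp-Het and 8 in Pax3. In Ct 2 of the 24 were called (Rflna and Rdh16). Rflna was lost in 3 and Rdh16 in 4 of the 6 refits without 1 mouse, and Rdh16 also under quantile normalization (adjusted p = 0.0566) and median centring (adjusted p = 0.109). Fasn itself was not called (-1.77 ± 0.57 (SE), adjusted p = 0.112). The count of 11 became 20 without Ct replicate 1, 6 without Ct replicate 4, and 23 with all 36 arrays.

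**Figure D5:**
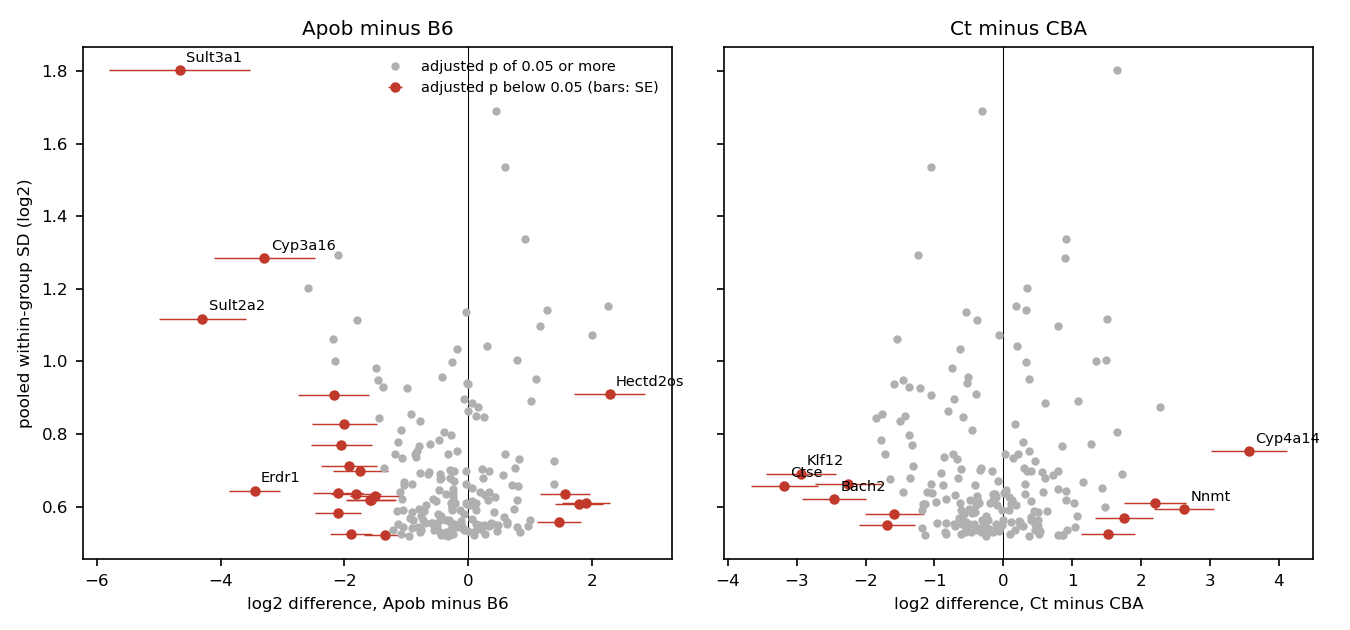
Each point is 1 of the 200 members, placed by its log2 difference between mutant and control means and by its pooled within-group SD, for Apob minus B6 (left) and Ct minus CBA (right). Red points with SE bars were called (22 and 11); in Apob most of them lie left of 0, down to Sult3a1 at -4.66.

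Lp-Het mice gave 1 called member beside 0.213% of all genes tested (0.137% higher, 0.0759% lower). Alas1 read 14599, 5991, 20886 and 9635 in Lp-Het and 1538, 1340.2, 2202 and 3480.2 in Lp-WT mice, without overlap, and rose by 2.52 ± 0.39 (SE) on the log2 scale (adjusted p = 0.00363). It stayed called in all 8 refits, and 2 members were called without Lp-Het replicate 4 or without Lp-WT replicate 4. Usp2 and Noct were not called (1.47 ± 0.38 (SE), adjusted p = 0.0982, and 1.23 ± 0.40 (SE), adjusted p = 0.218). The 28 calls over all genes became 3 without Lp-WT replicate 2, 5 without Lp-WT replicate 3, 6 without Lp-Het replicate 3 and 45 without Lp-WT replicate 1.

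Between Pax3 and B6 mice limma called 0 members and 0 genes in all (0%), with 25 members and 1164 genes at an unadjusted p below 0.05. The members with the smallest p were Lifr, the leukaemia inhibitory factor receptor (-1.39 ± 0.34 (SE), adjusted p = 0.166), Slco1a1 (-2.53 ± 0.72 (SE), adjusted p = 0.271) and Sult2a8 (-1.33 ± 0.39 (SE), adjusted p = 0.278). No member was called without Pax3 replicate 3 either. Between Cd-Het and Cd-WT mice limma also called 0 members and 0 genes (0%), with 12 members and 420 genes at an unadjusted p below 0.05. There Ces5a (2.81 ± 0.84 (SE)), Polr3k, an RNA polymerase III subunit (-1.17 ± 0.39 (SE)), and Lepr, the leptin receptor (1.10 ± 0.38 (SE)), had the smallest p, each with an adjusted p of 0.9998. A p that misses the threshold does not show that the groups were alike.

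Among the 4 control groups, 54 members differed by limma's F test (adjusted p below 0.05), 27.0% of the 200, while 14.6% of all genes tested did. The smallest adjusted p among members were those of 9130409I23Rik (2.0e-12), Asic5, a sodium channel (6.6e-10), Ctse (6.0e-08), Cyp4a14 (6.4e-07), Alas1 (2.4e-06) and Cyp17a1, a steroid hydroxylase (3.9e-06). 9130409I23Rik read 141, 65.9, 68.1 and 102 in B6 and 3408, 5499.8 and 4547 in CBA mice. Asic5 read 135, 146, 179 and 251 in B6 and 953, 1616 and 1068 in CBA mice. Ctse read 1431, 1323 and 1515 in CBA, 3189.8, 1658, 1735 and 2550.1 in Cd-WT and 146, 99.9, 145 and 87.1 in Lp-WT mice. In each of the 3 genes the mice of the groups given did not overlap, but the 3 were picked for their small p.

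The 2 arrays left out of the selection were compared with the mean of the other mice of their groups, which did help to choose the genes. That mean is less certain for genes chosen for their spread, so larger deviations of the members are in part built in. The GAPDH 3'/5' ratio of Ct replicate 3 was also raised (1.72), so the values are a description. On Ct replicate 3 the median absolute deviation from the other mice of the group was 0.873 for the members and 0.338 for all 6273 genes, and 86 members (43.0%) were more than 2-fold away, against 10.04% of all genes. On CBA replicate 4, with the very high GAPDH ratio, the medians were 0.888 and 0.837, and the shares more than 2-fold away 46.5% and 41.7%. The genes hardly stood out on that array. Measured in the same way, the 34 arrays used gave medians of 0.316 to 0.867 for the members, which they helped to choose, and 0.125 to 0.409 for all genes.

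The members are mostly protein-coding. RefSeq held 198 of them, 185 protein-coding genes, 7 long noncoding RNAs, 5 transcribed pseudogenes and 1 other RNA. The protein-coding members lay on all autosomes and the X chromosome, with 16 each on chromosomes 4 and 11. Among them were 22 pairs with at most 4 protein-coding genes between them, many of them of gene families. Among pairs of 1 gene family r ranged widely. It was 0.90 or more for the Mt, Hamp, Saa and Cyp2b pairs, 0.83 for Cyp2c54 and Cyp2c50, 0.77 for Cyp3a16 and Cyp3a44, 0.71 for Mup5 and Mup3, 0.64 for Acot1 and Acot3 and 0.60 for Slc22a26 and Slc22a27. It was lower for Hsd3b5 and Hsd3b2 (0.36), Cyp4a14 and Cyp4a31 (0.24), Akr1c19 and Akr1e1 (0.10) and Sult2a2 and Sult2a8 (-0.10). Probe sets of close copies can share target RNA, so these pairs are not independent. The other neighbours lay between -0.30 (Rdh11 and Rad51b) and 0.34 (Phgdh and Hsd3b5).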

How the data were processed

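RNA from 36 female mouse livers was hybridised to Affymetrix arrays with 45101 probe sets. The authors deposited signal intensity values for each probe set, computed with MAS5 per the submitters' processing notes. Its version and scaling target are not given in the sources used here. Probe sets were named through the platform annotation: 34945 had 1 symbol and 932 several, and the latter were not used. No columns of values were left unused (0), and the number of arrays limits the precision.

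The members were chosen by the rule given above (offset 23, mean signal above 500, 34 of 36 arrays). The members and the gene lists were chosen with earlier results of these data known. Group means were compared with limma 3.58.1 (R 4.3.3): log2(intensity + 23), all 9 groups in 1 fit, 13172 genes above the 40th percentile of mean values, a variance trend, Benjamini-Hochberg adjustment, threshold 0.05. Differences are on the log2(intensity + 23) scale, which understates changes at low signal. On data simulated for the Apob and B6 groups with 13172 genes, the test recovered 65% of 2-fold and 96% of 4-fold changes, with 10 false calls. The changed genes were drawn from all 13172, so these shares do not hold for the members, whose spread is larger. Recovery among the members was not measured. The labels call the samples biological replicates, and no batch is given. Clusters used average linkage in scipy 1.17.1, with pandas 2.3.3, numpy 2.4.6, matplotlib 3.10.9 and Python 3.11.15. Sequences came from RefSeq tables.

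Named genes were the 12 with the largest SD, up to 5 per list and 6 per cluster or comparison, those at the limit, those with extreme shares or second probe sets, and neighbours. Other members were named after their values were seen. The alternatives tried were other offsets, filters, scalings, probe set rules and signal limits, all 36 arrays, a replicate block, and leaving out each mouse. A check of whether replicate numbers pair the mice found r above 0.1 in 10 of 22 pairs of arrays with the same number, so the numbers were not taken as pairs.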

Additional observations from a re-analysis of the deposited data

Results flagged for a closer look

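In the groups of 4 mice, 84 sets of 4 values of the genes with the largest spread were tested for 1 mouse lying far from the rest, and 5 gave such a mouse. Such a mouse turns up by chance in about 1 in 20 groups, a rate that does not hold here because these genes were chosen for the same spread, so the values are a description. Ces5a read 1150.2 on Lp-Het replicate 2, where the other 3 mice lay between 44.4 and 69.4. Xist read 25.4 on Cd-WT replicate 1, the lowest of its group. Cyp2b13 read 258 on Pax3 replicate 3, also the lowest. Mtm1 read 1048 on B6 replicate 1 and 8503 on Lp-Het replicate 4, both the highest of their groups. Groups of 3 mice were not tested.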

How the results depend on the processing

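Under the alternatives other than leaving out a mouse, 61 counts of members or called members were compared with the main ones. Of these, 57 stayed within 1.5 times and 4 moved. The 57 include the counts of called members in Pax3 and Cd-Het (always 0) and in Lp-Het (always 1). The share thus says little about the Apob and Ct counts. With all 36 arrays, 107 of the 200 genes were chosen again, 8 members were called in Apob (all among the 22) and 23 in Ct (10 of them among the 11). With a mean signal minimum of 200, 94 of the 200 remained. Leaving out 1 mouse at a time gave 171 to 196 shared genes, 7 to 26 called members for Apob, 6 to 20 for Ct, 1 to 2 for Lp-Het, 46 to 56 for the control groups and 0 to 0 for Pax3 and Cd-Het. The cause of these shifts was not tested, beyond the added arrays and the lower limit themselves. Scaling by the median of each array changed the split of all called genes to 63 higher and 146 lower in Apob and to 127 and 60 in Ct, while the members' split in Apob stayed at 5 and 17.

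With the replicate number as a block, 27 members were called in Apob (20 of them among the 22), 9 in Ct (6 among the 11), 1 in Lp-Het, 0 in Pax3 and 0 in Cd-Het. Among the calls that the block ended were Cyp7a1 (limma adjusted p = 0.0553) and Noct (0.0613) in Apob, and Sucnr1 (0.0843), Rflna (0.22) and Rdh16 (0.34) in Ct. The F test over the control groups could not be fitted with the block. Correlations between mice of the same number ran from -0.34 to 0.59 (0.59 and 0.48 in the 2 pairs of Ct with CBA), and 15 of 34 arrays correlated best with their own number. The 25 degrees of freedom come from 3 or 4 mice a group.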
